A study of Danio rerio with 18 samples.

Results

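The nuclear pore and nuclear transport genes were taken as every gene whose symbol begins with nup and a digit, kpna, kpnb, xpo and a digit, ipo and a digit, tnpo or ranbp, or equals ran, with case ignored. This rule found 56 genes among the 32521 listed gene identifiers. Of these, 23 encode nucleoporins and 33 encode transport factors or other proteins named for binding Ran. Symbols are spelled as the identifier table gives them, and 2 identifiers carry the symbol NUP85 (ENSDARG00000112002 and ENSDARG00000098679).

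RNA-Seq was carried out on whole zebrafish embryos of the line Tg(ddx4:ddx4-EGFP) on the ABTL background, obtained by crossing transgenic females with casper males. In this line the ddx4 (vasa) regulatory sequences drive a ddx4-EGFP fusion that is supplied maternally. In germ cells its mRNA escapes the RNA degradation at the mid-blastula transition, so after that stage EGFP marks a small share of the embryo. The genes described here were read in whole embryos. Embryos received 0.7 ng of the StCsm complex with the D16A substitution, a type III CRISPR effector guided against the EGFP transcript (StCsm(EGFP)), or diluted storage buffer (mock) in 1 nL into the yolk at the 1-cell stage. Pools of 25 embryos were collected at the 128-cell stage, at 5 h post fertilization (hpf) and at 24 hpf in 3 independent injections, which gave 18 libraries in 6 groups with 3 libraries each. The replicate number was taken to name the injection experiment, which the sample titles do not state. All groups carried the transgene and all were injected, and uninjected embryos were not analysed here.

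The nuclear pore complex is a ring-shaped assembly of nucleoporins through which all traffic between nucleus and cytoplasm passes. Importin alpha recognizes the classical nuclear localization signal and binds importin beta (KPNB1), other members of the importin beta family carry their own cargoes in either direction, and the small GTPase Ran sets the direction of travel. The early zebrafish embryo runs on maternal RNA and builds nuclei at each rapid cleavage before its own genome becomes active, so the RNA for these proteins is at first inherited from the egg.

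Each library held between 11763787 and 21092691 reads assigned to genes (median 14412027). Levels are given as CPM, read counts scaled to the size of the library with TMM factors, and no transcript lengths were at hand, so levels were compared between samples and not between genes. Fold changes come from edgeR's quasi-likelihood test with the replicate number as a block, with ± for the standard error and p-values adjusted by Benjamini-Hochberg over all genes tested. A gene was called at an adjusted p under 0.1. With the block, these p-values measure how a difference varied between injection experiments, and not how the levels varied. In whole embryos fewer cells of a type and less RNA per cell cannot be told apart. The RNA was selected by its poly(A) tail. A change in the number of transcripts and a change in the part captured by the tail cannot be told apart either. EGFP itself was lower in StCsm(EGFP) than in mock libraries of all 3 experiments for the 128-cell stage (log2 fold change -0.44, adjusted p = 0.0186) and for 5 hpf (-0.57, unadjusted p = 0.0144, adjusted p = 1.00). For 24 hpf it was lower in 0 of 3 (0.35, adjusted p = 0.977), with no more than 2.36 CPM in StCsm(EGFP) and 1.46 CPM in mock libraries. The study judged EGFP counts at 24 hpf too low to compare, so no direction is read from them. Summed maternal marker genes (7 of 7 found) ranged between 3130 and 4449 CPM in StCsm(EGFP) and between 3704 and 4489 CPM in mock embryos at the 128-cell stage, between 452 and 999 CPM and between 436 and 922 CPM at 5 hpf, and between 4.78 and 12.4 CPM and between 8.26 and 16.9 CPM at 24 hpf. By these sums every library followed its labelled stage. Summed muscle markers (2 of 5 found) at 24 hpf were 4690, 2010 and 3853 CPM in StCsm(EGFP) replicates 1, 2 and 3. In mock libraries they ranged between 3494 and 4377 CPM. StCsm(EGFP) replicate 2 also had the lowest nervous system sum (4 of 4 found, 901 CPM). Its blood sum (3 of 4 found, 458 CPM) lay within the range of either group. The part of this library in the 24 hpf values was not tested.

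Most members were called between developmental stages, as were most of all genes tested, so the number called is not particular to the set. When 5 hpf was set against the 128-cell stage, 32 of 56 genes were higher and 12 lower in StCsm(EGFP) embryos, where the background over all genes was 36.4% higher and 36.5% lower. In mock embryos 31 genes were higher and 12 lower, against a background of 36.7% higher and 35.9% lower. Library totals in place of TMM moved the median of all genes by -0.60 in StCsm(EGFP) and -0.63 in mock embryos, and 13 of the 32 and 15 of the 31 higher calls then stood under every scaling, while 11 of 12 and 12 of 12 lower calls stood. With totals all genes shift downward, so totals could hardly remove a lower call. Among all called genes the higher share was 49.9% with TMM and 34.7% with totals in StCsm(EGFP) embryos, and 50.6% and 33.7% in mock embryos. The members' median lay 0.56 above that of all genes with TMM and 0.55 with totals in StCsm(EGFP) embryos, and 0.43 and 0.41 in mock embryos. A change of scaling moves all genes by nearly the same amount, so this distance could hardly differ and does not test the scaling. With totals 13 were higher and 19 lower in StCsm(EGFP) embryos (background 26.0% and 48.8%) and 15 higher and 24 lower in mock embryos (background 25.9% and 51.1%), so the balance of calls at this step reversed with the scaling.

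Between 5 hpf and 24 hpf more genes were lower than higher at the later stage, with TMM as with totals. In StCsm(EGFP) embryos 9 genes were higher and 31 lower at 24 hpf, with backgrounds of 40.6% and 37.9%, and in mock embryos 13 were higher and 27 lower, with backgrounds of 41.7% and 40.0%. All 31 and all 27 lower calls stood under every scaling, as did 5 of the 9 and 5 of the 13 higher calls. Totals moved the median of all genes by -0.23 and -0.39, a downward shift under which lower calls could hardly be lost. Their survival is therefore no test of the scaling. The higher share of all called genes was 51.7% with TMM and 46.3% with totals in StCsm(EGFP) embryos and 51.1% and 42.3% in mock embryos. The members' median was 0.51 below that of all genes in StCsm(EGFP) embryos with TMM and 0.52 with totals, and 0.29 below with either in mock embryos. Here too the scaling could hardly alter the distance. Both contrasts share the 5 hpf libraries, so they are not independent of each other. In what follows the first step is 5 hpf over the 128-cell stage and the second is 24 hpf over 5 hpf.

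At 24 hpf set against the 128-cell stage, 20 members were higher and 24 lower in StCsm(EGFP) embryos (background 45.3% and 39.5%), and 23 were higher and 23 lower in mock embryos (background 47.0% and 39.8%). With totals, whose shift of the median of all genes was -0.83 and -1.03, 13 higher and 22 lower calls stood under every scaling in each injection. This downward shift, too, could hardly remove a lower call. The higher share of all called genes was 53.4% with TMM and 40.9% with totals in StCsm(EGFP) embryos, and 54.1% and 39.3% in mock embryos. The called direction was the same in both injections for 30 higher and 11 lower genes at 5 hpf over the 128-cell stage and for 9 higher and 26 lower genes at 24 hpf over 5 hpf, and 0 genes were called in opposite directions. The same count was not made over all genes, so this likeness is not read as a trait of the members. The highest mean of a gene lay at 128 cells for 11, at 5 hpf for 28 and at 24 hpf for 17 members in StCsm(EGFP) embryos, against 33.6%, 26.2% and 40.3% of all genes. In mock embryos these counts were 13, 23 and 20, against 33.8%, 26.2% and 40.1% of all genes. With totals they were 28, 19 and 9 in StCsm(EGFP) embryos, against 48.95%, 20.02% and 31.0% of all genes, and 35, 15 and 6 in mock embryos, against 49.6%, 20.9% and 29.6% of all genes.

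**Figure D1:**
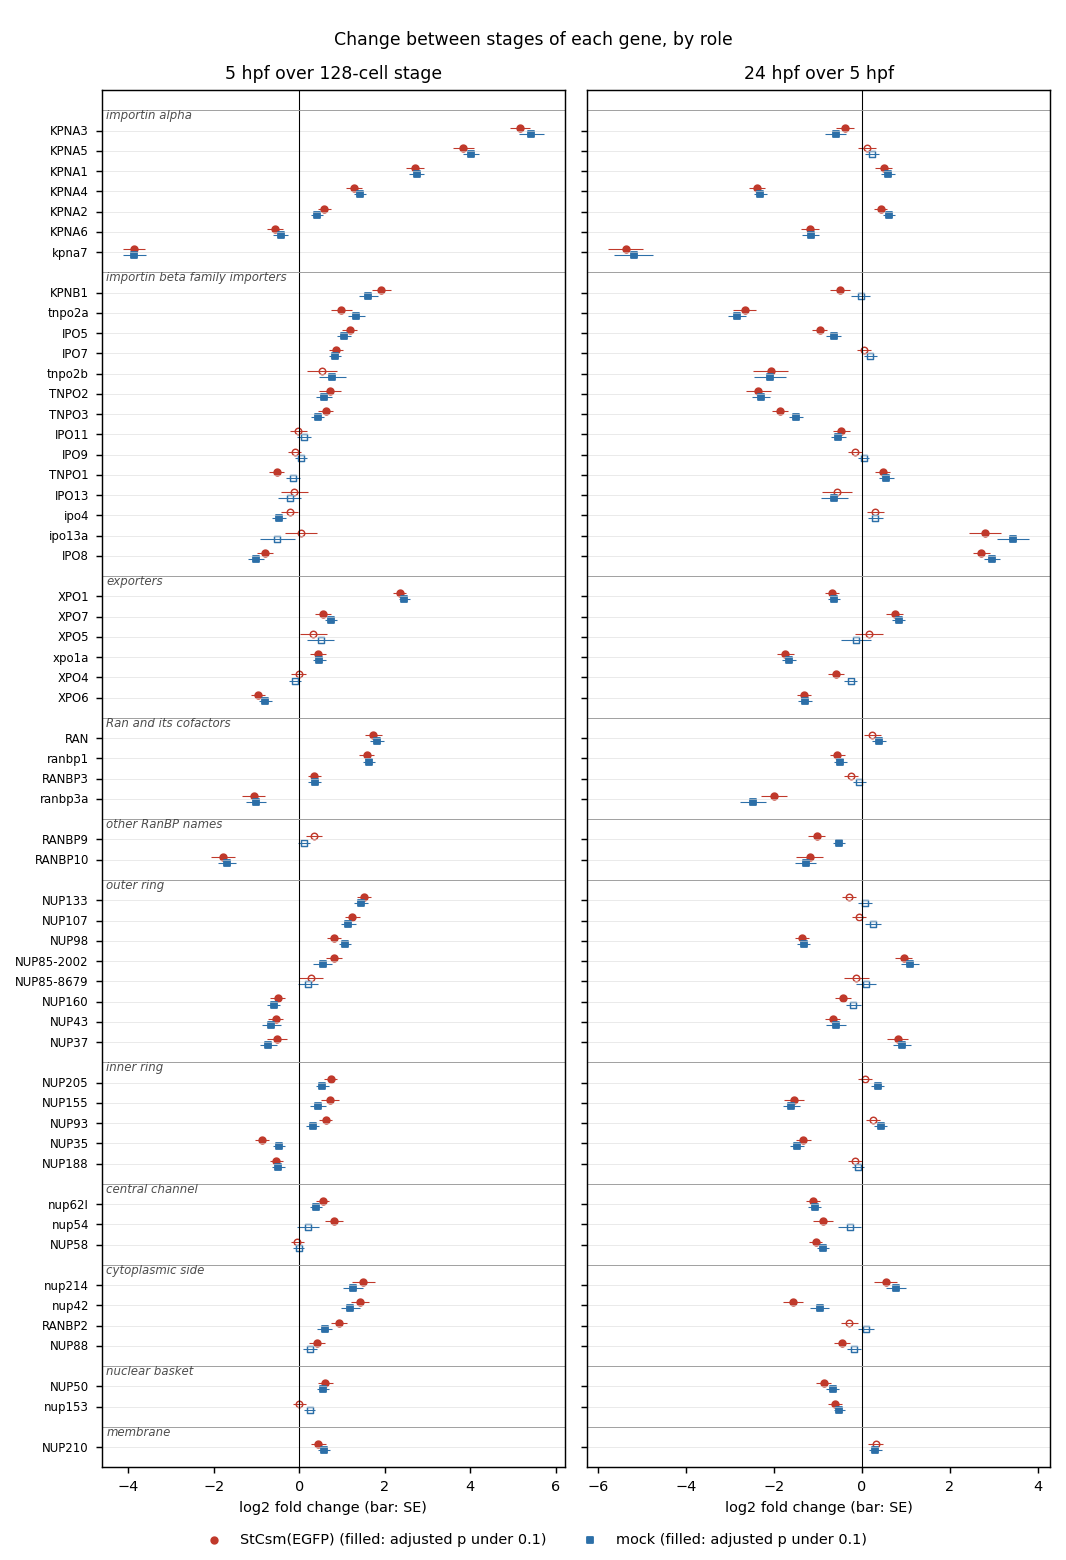
Log2 fold change of each of the 56 genes, grouped by role, at 5 hpf over the 128-cell stage (left) and at 24 hpf over 5 hpf (right), with TMM scaling; circles are StCsm(EGFP) and squares mock embryos, filled symbols have an adjusted p under 0.1, bars are standard errors, and the 2 NUP85 identifiers are marked by their last digits. In mock embryos the values span -3.86 (kpna7) to 5.43 (KPNA3) on the left and -5.19 (kpna7) to 3.44 (ipo13a) on the right; with library totals 13 called genes on the left and 3 on the right change direction in mock embryos, and 8 on the left and 0 on the right in StCsm(EGFP) embryos.

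At the first step the importin alpha genes held the widest range of the set. Between the 128-cell stage and 5 hpf, 5 of the 7 were higher at 5 hpf and 2 lower in both injections. Over all genes 36.4% were higher and 36.5% lower in StCsm(EGFP) embryos, and 36.7% and 35.9% in mock embryos. The rise of KPNA2 turned to -0.037 in StCsm(EGFP) and -0.24 in mock embryos with library totals. In mammals the family falls into subfamilies, KPNA2 with KPNA7, KPNA3 with KPNA4, and KPNA1 with KPNA5 and KPNA6, and mammalian KPNA7 is known as the form of oocytes and early embryos.

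The CPM of kpna7 in StCsm(EGFP) embryos was 251, 165 and 166 at 128 cells, 20.4, 14.3 and 8.12 at 5 hpf and 0.417, 0.0654 and 0.654 at 24 hpf. In mock embryos kpna7 had a CPM of 244, 221 and 193 at 128 cells, 21.3, 8.91 and 17.1 at 5 hpf and 0.851, 0 and 0.458 at 24 hpf. The 24 hpf values rest on 4, 1 and 6 reads in StCsm(EGFP) libraries and 7, 0 and 5 reads in mock libraries. In each injection every library of a later stage lay below every library of an earlier one. The log2 fold change of kpna7 at 5 hpf over the 128-cell stage was -3.88 ± 0.26 (adjusted p = 1.28e-08) in StCsm(EGFP) embryos and -3.86 ± 0.27 (adjusted p = 9.00e-08) in mock embryos, a level of 6.87% of the earlier one in mock embryos, and 0.403% of all genes tested in mock embryos fell further. From there the change at 24 hpf over 5 hpf was -5.37 ± 0.40 (adjusted p = 3.91e-08) in StCsm(EGFP) embryos and -5.19 ± 0.44 (adjusted p = 2.96e-07) in mock embryos.

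KPNA3 rose at the step where kpna7 first fell. The CPM of KPNA3 in StCsm(EGFP) embryos was 3.04, 4.53 and 3.03 at 128 cells, 90.8, 136 and 188 at 5 hpf and 68.0, 134.5 and 122.7 at 24 hpf. In mock embryos KPNA3 had a CPM of 3.29, 2.56 and 3.85 at 128 cells, 92.1, 234 and 117 at 5 hpf and 80.6, 104 and 94.5 at 24 hpf. All 5 hpf libraries lay above all 128-cell libraries, and at 24 hpf the range overlapped that at 5 hpf. At 5 hpf over the 128-cell stage its log2 fold change was 5.17 ± 0.24 (adjusted p = 2.81e-10) in StCsm(EGFP) embryos and 5.43 ± 0.30 (adjusted p = 6.83e-09) in mock embryos, or 43.1-fold in mock embryos. The later change was -0.38 ± 0.20 in StCsm(EGFP) embryos and -0.59 ± 0.24 in mock embryos. Its relative KPNA4 behaved differently. The CPM of KPNA4 in StCsm(EGFP) embryos was 259.5, 289 and 263 at 128 cells, 618, 648 and 800.4 at 5 hpf and 133, 149 and 121 at 24 hpf. In mock embryos KPNA4 had a CPM of 237, 254 and 269 at 128 cells, 661, 756 and 613 at 5 hpf and 134, 139.6 and 133 at 24 hpf. The 5 hpf libraries stood highest and the 24 hpf libraries lowest, without overlap. The changes were 1.28 ± 0.18 in StCsm(EGFP) embryos and 1.42 ± 0.14 in mock embryos at 5 hpf over the 128-cell stage, then -2.37 ± 0.18 in StCsm(EGFP) embryos and -2.31 ± 0.15 in mock embryos at 24 hpf over 5 hpf, all of them past the threshold.

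Within the remaining subfamily KPNA1 and KPNA5 were high late and KPNA6 was high early. The CPM of KPNA5 in StCsm(EGFP) embryos was 2.76, 3.88 and 3.17 at 128 cells, 44.7, 40.6 and 62.1 at 5 hpf and 40.6, 69.0 and 55.5 at 24 hpf. In mock embryos KPNA5 had a CPM of 2.38, 3.20 and 2.65 at 128 cells, 38.1, 49.6 and 45.9 at 5 hpf and 47.1, 54.2 and 53.7 at 24 hpf. The 2 later stages overlapped, and both lay above the 128-cell stage. For KPNA5 the log2 fold change at 5 hpf over the 128-cell stage was 3.84 ± 0.24 (adjusted p = 6.80e-09) in StCsm(EGFP) embryos and 4.02 ± 0.18 (adjusted p = 6.31e-10) in mock embryos, and that at 24 hpf over 5 hpf did not pass the threshold (0.13 ± 0.21 in StCsm(EGFP) embryos and 0.23 ± 0.16 in mock embryos). The CPM of KPNA1 in StCsm(EGFP) embryos was 5.05, 5.96 and 4.30 at 128 cells, 29.6, 35.1 and 40.4 at 5 hpf and 41.9, 57.7 and 51.4 at 24 hpf. In mock embryos KPNA1 had a CPM of 4.66, 5.21 and 5.13 at 128 cells, 27.6, 42.9 and 31.1 at 5 hpf and 44.4, 58.3 and 48.9 at 24 hpf. With TMM scaling its level was higher at each later stage without overlap between the stages of an injection. The change of KPNA1 was 2.703 ± 0.21 in StCsm(EGFP) embryos and 2.74 ± 0.18 in mock embryos at 5 hpf over the 128-cell stage and 0.50 ± 0.19 in StCsm(EGFP) embryos and 0.60 ± 0.17 in mock embryos at 24 hpf over 5 hpf. Of all members called higher at that second step, only 5 of 9 in StCsm(EGFP) and 5 of 13 in mock embryos stood under every scaling. The CPM of KPNA6 in StCsm(EGFP) embryos was 28.5, 28.4 and 31.6 at 128 cells, 21.1, 21.0 and 20.1 at 5 hpf and 9.16, 9.88 and 8.82 at 24 hpf. In mock embryos KPNA6 had a CPM of 26.9, 26.7 and 28.6 at 128 cells, 16.9, 21.3 and 22.4 at 5 hpf and 9.48, 7.25 and 10.2 at 24 hpf. KPNA6 was lower at each later stage, again without overlap, with log2 fold changes of -0.58 ± 0.19 in StCsm(EGFP) embryos and -0.44 ± 0.18 in mock embryos at 5 hpf over the 128-cell stage and -1.17 ± 0.20 in StCsm(EGFP) embryos and -1.16 ± 0.20 in mock embryos at 24 hpf over 5 hpf.

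The CPM of KPNA2 in StCsm(EGFP) embryos was 96.5, 77.2 and 94.9 at 128 cells, 146, 141 and 132 at 5 hpf and 227, 166 and 184 at 24 hpf. In mock embryos KPNA2 had a CPM of 99.7, 91.6 and 107 at 128 cells, 153.5, 126.5 and 115 at 5 hpf and 193, 212.5 and 192.5 at 24 hpf. KPNA2 lay higher at each later stage with TMM scaling and no overlap of libraries, although its first step turned negative with totals. The log2 fold changes were 0.58 ± 0.15 in StCsm(EGFP) embryos and 0.41 ± 0.14 in mock embryos at 5 hpf over the 128-cell stage and 0.43 ± 0.15 in StCsm(EGFP) embryos and 0.62 ± 0.14 in mock embryos at 24 hpf over 5 hpf.

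**Figure D2:**
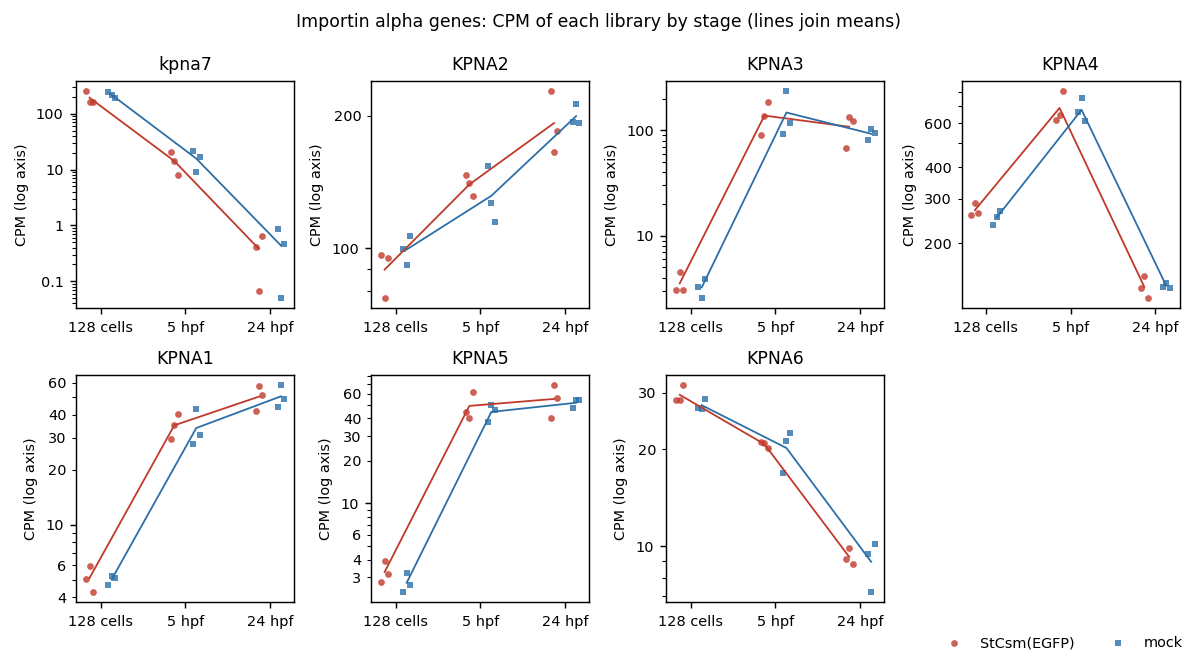
CPM (TMM scaling, log axis, each panel with its own range) of the 7 importin alpha genes in each library at the 3 stages; circles are StCsm(EGFP) and squares mock libraries and lines join group means. The kpna7 library with 0 reads (mock replicate 2 at 24 hpf) is drawn at the lower edge; KPNA3, KPNA5 and KPNA1 lie at no less than 27.6 CPM in any 5 hpf library and at no more than 5.96 CPM in any 128-cell library, while kpna7 lies at no more than 21.3 CPM at 5 hpf and no less than 165 CPM at the 128-cell stage, and the KPNA2 step between these stages reverses with library totals.

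At 5 hpf the libraries differed in the levels of these genes, not all in the same way. StCsm(EGFP) replicate 3 and mock replicate 2 had the least kpna7 of their groups (8.12 and 8.91 CPM) and the most KPNA3 (188 and 234 CPM). KPNA1, KPNA4 and KPNA5 were also highest of their groups there. KPNA2, which rose at this step with TMM, was lowest of its group in StCsm(EGFP) replicate 3 (132 CPM). Among other members that rose, KPNB1 (495 and 380 CPM), NUP133 and nup62l were lowest of their groups in these libraries. The summed maternal markers were lowest in the same libraries (452 and 436 CPM). Their early zygotic marker sums (8 of 8 genes found) were 2827 CPM in StCsm(EGFP) replicate 3, the lowest of its group between 2827 and 3285 CPM, and 3084 CPM in mock replicate 2, in a group between 2477 and 3493 CPM. The part of such differences between pools in the values below was not tested.

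Among the importin beta family importers, which bind cargo or an adaptor and release it on meeting RanGTP, 6 of 14 were higher and 2 lower at 5 hpf than at the 128-cell stage in StCsm(EGFP) embryos, and 7 were higher and 2 lower in mock embryos. The second step had 3 higher and 7 lower in each injection. At the first step 36.4% of all genes were higher and 36.5% lower in StCsm(EGFP) embryos, and 36.7% and 35.9% in mock embryos. At the second these shares were 40.6% and 37.9% in StCsm(EGFP) embryos, and 41.7% and 40.0% in mock embryos. KPNB1, the importin beta that carries importin alpha with its cargo, rose at the first step. The CPM of KPNB1 in StCsm(EGFP) embryos was 235.5, 142.5 and 142.5 at 128 cells, 725.5, 788 and 495 at 5 hpf and 630.0, 348 and 487 at 24 hpf. In mock embryos KPNB1 had a CPM of 231, 173 and 184 at 128 cells, 935, 379.8 and 550.3 at 5 hpf and 544, 598.5 and 568 at 24 hpf. All 5 hpf and 24 hpf libraries lay above all 128-cell libraries, and the later pair of stages overlapped. Its log2 fold change at 5 hpf over the 128-cell stage was 1.92 ± 0.22 (adjusted p = 3.57e-06) in StCsm(EGFP) embryos and 1.62 ± 0.22 (adjusted p = 2.09e-05) in mock embryos. The second step gave -0.49 ± 0.22 (adjusted p = 0.0525) in StCsm(EGFP) embryos and -0.02 ± 0.22 (adjusted p = 0.925) in mock embryos, past the threshold in the StCsm(EGFP) embryos; the difference between the injections was not called.

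IPO8, closely related to IPO7, fell at the first step and rose at the second. The CPM of IPO8 in StCsm(EGFP) embryos was 27.1, 20.4 and 19.3 at 128 cells, 17.2, 13.2 and 10.1 at 5 hpf and 123.4, 65.4 and 83.5 at 24 hpf. In mock embryos IPO8 had a CPM of 26.1, 25.3 and 23.7 at 128 cells, 16.9, 10.0 and 10.7 at 5 hpf and 99.8, 94.0 and 92.4 at 24 hpf. In both injections its lowest values were those at 5 hpf and its highest those at 24 hpf, with no overlap between stages. The changes were -0.80 ± 0.19 in StCsm(EGFP) embryos and -1.01 ± 0.18 in mock embryos at 5 hpf over the 128-cell stage and 2.72 ± 0.19 (adjusted p = 2.39e-08) in StCsm(EGFP) embryos and 2.96 ± 0.19 (adjusted p = 1.03e-08) in mock embryos at 24 hpf over 5 hpf. For IPO7 they were 0.86 ± 0.16 in StCsm(EGFP) embryos and 0.84 ± 0.14 in mock embryos and then 0.06 ± 0.16 in StCsm(EGFP) embryos and 0.20 ± 0.14 in mock embryos, the first past the threshold with TMM but not with totals in either injection and the second not called.

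Transportin genes encode carriers of RNA-binding proteins. The CPM of tnpo2a in StCsm(EGFP) embryos was 285, 402 and 403 at 128 cells, 564, 574 and 1156 at 5 hpf and 78.5, 174 and 114 at 24 hpf. In mock embryos tnpo2a had a CPM of 242, 287 and 366 at 128 cells, 509, 1082 and 709 at 5 hpf and 94.4, 103 and 112.5 at 24 hpf. Levels of tnpo2a were highest at 5 hpf and lowest at 24 hpf, without overlap. The highest 5 hpf values were those of StCsm(EGFP) replicate 3 and mock replicate 2, the libraries lowest in kpna7. The log2 fold changes of tnpo2a were 0.98 ± 0.25 in StCsm(EGFP) embryos and 1.34 ± 0.20 in mock embryos at 5 hpf over the 128-cell stage and -2.66 ± 0.27 (adjusted p = 6.71e-07) in StCsm(EGFP) embryos and -2.83 ± 0.21 (adjusted p = 4.56e-08) in mock embryos at 24 hpf over 5 hpf. TNPO2 and tnpo2b also fell at the second step. The change was -2.36 ± 0.29 in StCsm(EGFP) embryos and -2.29 ± 0.21 in mock embryos for TNPO2, and -2.07 ± 0.39 in StCsm(EGFP) embryos and -2.09 ± 0.36 in mock embryos for tnpo2b. With TMM scaling TNPO1 differed in sign at that step, with 0.48 ± 0.17 in StCsm(EGFP) embryos and 0.56 ± 0.16 in mock embryos. Reads with several alignments were not assigned to a gene, so values of closely related copies such as these are less certain than those of single-copy genes. Of the other importers, IPO5 had 1.18 ± 0.18 in StCsm(EGFP) embryos and 1.04 ± 0.17 in mock embryos at the first step and -0.96 ± 0.18 in StCsm(EGFP) embryos and -0.64 ± 0.17 in mock embryos at the second, and TNPO3, which imports splicing factors rich in serine and arginine, fell at the second, with -1.85 ± 0.18 in StCsm(EGFP) embryos and -1.49 ± 0.16 in mock embryos. IPO9 passed the threshold at neither step.

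The importin gene ipo13a was scarce until 24 hpf. The CPM of ipo13a in StCsm(EGFP) embryos was 0.921, 0.920 and 0.770 at 128 cells, 1.02, 1.07 and 0.738 at 5 hpf and 6.77, 7.33 and 5.88 at 24 hpf. In mock embryos ipo13a had a CPM of 0.557, 0.982 and 1.03 at 128 cells, 0.582, 0.692 and 0.525 at 5 hpf and 6.93, 5.99 and 6.60 at 24 hpf. Only the 24 hpf libraries stood apart from the rest. Its log2 fold change at 24 hpf over 5 hpf was 2.80 ± 0.36 (adjusted p = 7.62e-06) in StCsm(EGFP) embryos and 3.44 ± 0.37 (adjusted p = 1.80e-06) in mock embryos.

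Of the 6 exporters, which load cargo with RanGTP inside the nucleus, 3 were higher and 1 lower at 5 hpf in each injection. The background over all genes was 36.4% and 36.5% in StCsm(EGFP) embryos, and 36.7% and 35.9% in mock embryos. At 24 hpf over 5 hpf 1 was higher and 4 lower in StCsm(EGFP) embryos (background 40.6% and 37.9%). In mock embryos 1 was higher and 3 lower (background 41.7% and 40.0%). XPO1 is the main carrier of proteins with leucine-rich export signals, and zebrafish have xpo1a as a paralog of it. The CPM of XPO1 in StCsm(EGFP) embryos was 40.7, 52.9 and 42.3 at 128 cells, 214, 255 and 253.5 at 5 hpf and 155, 160.1 and 144 at 24 hpf. In mock embryos XPO1 had a CPM of 40.5, 46.8 and 47.1 at 128 cells, 257, 262 and 219 at 5 hpf and 156.5, 168 and 150.3 at 24 hpf. XPO1 was lowest at the 128-cell stage and highest at 5 hpf, without overlap between stages. The log2 fold change was 2.35 ± 0.16 (adjusted p = 1.75e-08) in StCsm(EGFP) embryos and 2.46 ± 0.14 (adjusted p = 5.18e-09) in mock embryos at 5 hpf over the 128-cell stage and -0.67 ± 0.15 in StCsm(EGFP) embryos and -0.62 ± 0.13 in mock embryos at 24 hpf over 5 hpf. The CPM of xpo1a in StCsm(EGFP) embryos was 84.7, 106.5 and 94.1 at 128 cells, 105, 126.5 and 179 at 5 hpf and 35.2, 51.2 and 37.4 at 24 hpf. In mock embryos xpo1a had a CPM of 79.3, 85.4 and 98.9 at 128 cells, 111, 151 and 105 at 5 hpf and 36.1, 42.3 and 36.6 at 24 hpf. The 24 hpf libraries of xpo1a were all below those of both earlier stages, and the first step, 0.45 ± 0.19 in StCsm(EGFP) embryos and 0.47 ± 0.15 in mock embryos, turned to -0.16 and -0.18 with library totals. Its second step was -1.74 ± 0.19 (adjusted p = 1.96e-06) in StCsm(EGFP) embryos and -1.65 ± 0.16 (adjusted p = 5.75e-07) in mock embryos. At 24 hpf over the 128-cell stage XPO1 and xpo1a differed in sign: XPO1 had 1.68 ± 0.16 in StCsm(EGFP) embryos and 1.84 ± 0.14 in mock embryos, and xpo1a had -1.29 ± 0.19 in StCsm(EGFP) embryos and -1.18 ± 0.16 in mock embryos.

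XPO6, which exports actin with profilin, fell at each step. The CPM of XPO6 in StCsm(EGFP) embryos was 190.0, 176 and 168 at 128 cells, 108, 94.5 and 86.3 at 5 hpf and 51.5, 31.9 and 35.5 at 24 hpf. In mock embryos XPO6 had a CPM of 188, 167 and 196.5 at 128 cells, 109, 85.8 and 121 at 5 hpf and 45.6, 44.8 and 36.5 at 24 hpf. No libraries overlapped between stages. The changes were -0.96 ± 0.16 in StCsm(EGFP) embryos and -0.80 ± 0.15 in mock embryos at 5 hpf over the 128-cell stage and -1.32 ± 0.16 in StCsm(EGFP) embryos and -1.29 ± 0.16 in mock embryos at 24 hpf over 5 hpf. XPO7 rose at both with TMM scaling, but with totals its first step in StCsm(EGFP) embryos was -0.065. The CPM of XPO7 in StCsm(EGFP) embryos was 34.1, 29.7 and 31.7 at 128 cells, 36.6, 53.8 and 58.2 at 5 hpf and 84.7, 84.5 and 81.6 at 24 hpf. In mock embryos XPO7 had a CPM of 29.1, 33.0 and 31.1 at 128 cells, 51.6, 58.1 and 45.3 at 5 hpf and 85.7, 97.4 and 91.7 at 24 hpf. Its stages did not overlap, and the log2 fold changes were 0.56 ± 0.19 in StCsm(EGFP) embryos and 0.74 ± 0.14 in mock embryos at the first step and 0.75 ± 0.19 in StCsm(EGFP) embryos and 0.84 ± 0.14 in mock embryos at the second.

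Ran, the GTPase at the centre of the cycle, was among the genes of the set that rose at the first step. The CPM of RAN in StCsm(EGFP) embryos was 369.9, 342.5 and 341 at 128 cells, 1103, 1276 and 1302 at 5 hpf and 1493, 1419 and 1503 at 24 hpf. In mock embryos RAN had a CPM of 354, 326 and 370.4 at 128 cells, 1281, 1204 and 1189 at 5 hpf and 1526, 1576 and 1673 at 24 hpf. Every 5 hpf and 24 hpf library was above every 128-cell library. The log2 fold change at 5 hpf over the 128-cell stage was 1.74 ± 0.19 (adjusted p = 1.93e-06) in StCsm(EGFP) embryos and 1.81 ± 0.16 (adjusted p = 4.64e-07) in mock embryos, or 3.52-fold in mock embryos. The second step of RAN was 0.25 ± 0.18 (adjusted p = 0.240) in StCsm(EGFP) embryos and 0.39 ± 0.16 (adjusted p = 0.0369) in mock embryos, and in mock embryos it was -0.00088 with library totals. The gene ranbp1, whose protein helps RanGTP leave its carriers, changed by 1.58 ± 0.17 in StCsm(EGFP) embryos and 1.63 ± 0.15 in mock embryos and then by -0.56 ± 0.17 in StCsm(EGFP) embryos and -0.48 ± 0.14 in mock embryos. The CPM of ranbp3a in StCsm(EGFP) embryos was 17.3, 15.9 and 15.8 at 128 cells, 7.64, 7.49 and 9.46 at 5 hpf and 1.56, 2.75 and 1.85 at 24 hpf. In mock embryos ranbp3a had a CPM of 16.7, 13.2 and 19.2 at 128 cells, 7.32, 8.56 and 8.17 at 5 hpf and 0.851, 1.74 and 1.65 at 24 hpf. ranbp3a, a relative of the XPO1 cofactor RANBP3, fell at each step without overlap of libraries. Its log2 fold changes were -1.06 ± 0.27 in StCsm(EGFP) embryos and -1.02 ± 0.23 in mock embryos, then -1.99 ± 0.30 in StCsm(EGFP) embryos and -2.47 ± 0.30 in mock embryos.

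RANBP10, which with RANBP9 carries the Ran-binding name but belongs to a ubiquitin ligase complex, fell with stage. The CPM of RANBP10 in StCsm(EGFP) embryos was 44.6, 47.3 and 48.0 at 128 cells, 18.01, 13.9 and 10.9 at 5 hpf and 3.44, 9.29 and 6.43 at 24 hpf. In mock embryos RANBP10 had a CPM of 40.7, 37.4 and 47.9 at 128 cells, 14.1, 8.82 and 16.0 at 5 hpf and 4.86, 5.89 and 4.86 at 24 hpf. Within each injection every library of a later stage was lower than every library of an earlier stage. The log2 fold changes were -1.78 ± 0.28 in StCsm(EGFP) embryos and -1.70 ± 0.21 in mock embryos and then -1.19 ± 0.30 in StCsm(EGFP) embryos and -1.28 ± 0.23 in mock embryos.

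**Figure D3:**
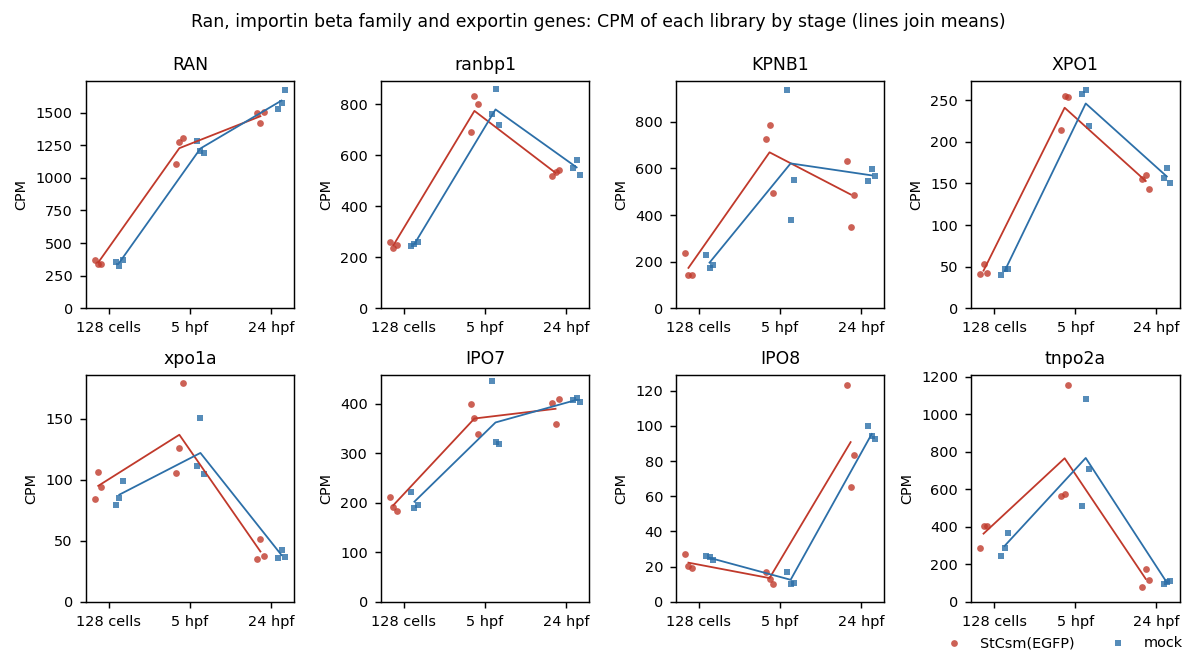
CPM (TMM scaling, linear axis from 0) of 8 transport genes in each library at the 3 stages; circles are StCsm(EGFP) and squares mock libraries and lines join group means. XPO1 lies between 214 and 262 CPM at 5 hpf and between 40.5 and 52.9 CPM at the 128-cell stage, whereas xpo1a reaches no more than 51.2 CPM at 24 hpf; the first step of xpo1a and, in mock embryos, the second step of RAN reverse with library totals.

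Nucleoporins moved over a narrower range than the transport factors. At 5 hpf over the 128-cell stage the log2 fold changes of the 23 nucleoporins lay between -0.88 and 1.52 in StCsm(EGFP) and between -0.73 and 1.44 in mock embryos, against -3.88 to 5.17 and -3.86 to 5.43 for the 33 transport factors. The median size of change was 0.62 and 0.55 for nucleoporins and 0.72 and 0.77 for transport factors, and no test of this difference was run. For the second step, 3 nucleoporins were higher and 12 lower in StCsm(EGFP) embryos, with backgrounds of 40.6% and 37.9% over all genes. In mock embryos 6 were higher and 9 lower, with backgrounds of 41.7% and 40.0%.

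In the outer ring (Y complex), which coats the pore membrane, 4 of 8 genes were higher and 3 lower at 5 hpf in each injection. Over all genes these shares were 36.4% and 36.5% in StCsm(EGFP) embryos, and 36.7% and 35.9% in mock embryos. Within the outer ring NUP133, a scaffold subunit, showed the largest rise. The CPM of NUP133 in StCsm(EGFP) embryos was 29.0, 24.6 and 22.8 at 128 cells, 90.5, 79.4 and 61.5 at 5 hpf and 78.8, 53.1 and 59.2 at 24 hpf. In mock embryos NUP133 had a CPM of 26.7, 28.2 and 24.3 at 128 cells, 92.0, 60.0 and 64.1 at 5 hpf and 80.3, 72.0 and 71.9 at 24 hpf. All libraries of the later stages lay above the 128-cell libraries, and the log2 fold change at 5 hpf over the 128-cell stage was 1.52 ± 0.17 (adjusted p = 1.93e-06) in StCsm(EGFP) embryos and 1.44 ± 0.16 (adjusted p = 3.80e-06) in mock embryos. NUP107 rose by 1.245 ± 0.16 in StCsm(EGFP) embryos and 1.15 ± 0.19 in mock embryos on the log2 scale. NUP37 fell at this step. The CPM of NUP37 in StCsm(EGFP) embryos was 20.5, 10.2 and 13.1 at 128 cells, 11.8, 9.96 and 9.06 at 5 hpf and 21.6, 15.4 and 18.3 at 24 hpf. In mock embryos NUP37 had a CPM of 20.9, 12.3 and 17.6 at 128 cells, 11.1, 8.13 and 11.1 at 5 hpf and 20.4, 18.9 and 17.1 at 24 hpf. The stages overlapped in StCsm(EGFP) embryos at this step and not in mock embryos. The change was -0.53 ± 0.23 in StCsm(EGFP) embryos and -0.73 ± 0.20 in mock embryos, and at 24 hpf over 5 hpf it was 0.82 ± 0.23 in StCsm(EGFP) embryos and 0.92 ± 0.21 in mock embryos.

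NUP98 is a nucleoporin of the channel and ring whose precursor is also cleaved to Nup96. The CPM of NUP98 in StCsm(EGFP) embryos was 101, 119 and 117 at 128 cells, 187, 191 and 243 at 5 hpf and 73.6, 91.3 and 78.7 at 24 hpf. In mock embryos NUP98 had a CPM of 83.7, 98.3 and 119 at 128 cells, 182.5, 243 and 205.5 at 5 hpf and 80.2, 87.6 and 81.2 at 24 hpf. Its level was highest at 5 hpf in every library. At 5 hpf over the 128-cell stage it changed by 0.81 ± 0.16 in StCsm(EGFP) embryos and 1.08 ± 0.14 in mock embryos, and at 24 hpf over 5 hpf by -1.36 ± 0.16 (adjusted p = 3.47e-06) in StCsm(EGFP) embryos and -1.32 ± 0.14 (adjusted p = 2.13e-06) in mock embryos. The ENSDARG00000112002 copy of NUP85 was the outer ring member with the largest rise at the last step. The CPM of NUP85 (ENSDARG00000112002) in StCsm(EGFP) embryos was 18.1, 11.2 and 11.1 at 128 cells, 29.1, 25.8 and 18.6 at 5 hpf and 63.2, 38.8 and 43.7 at 24 hpf. In mock embryos NUP85 (ENSDARG00000112002) had a CPM of 21.5, 17.9 and 12.8 at 128 cells, 32.5, 17.0 and 26.7 at 5 hpf and 55.6, 51.6 and 51.8 at 24 hpf. The 24 hpf libraries lay above the others without overlap. Its changes were 0.81 ± 0.19 in StCsm(EGFP) embryos and 0.55 ± 0.21 in mock embryos at 5 hpf over the 128-cell stage, which in mock embryos turned to -0.10 with library totals, and 0.96 ± 0.19 in StCsm(EGFP) embryos and 1.101 ± 0.21 in mock embryos at 24 hpf over 5 hpf. The other NUP85 identifier (ENSDARG00000098679) had means of 6.98 CPM at 5 hpf and 6.55 CPM at 24 hpf in StCsm(EGFP) embryos. In mock embryos these were 6.36 and 6.74 CPM, and the 2 stages overlapped in both injections. For injection at the 128-cell stage it had a log2 fold change of -0.014.

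In the inner ring 3 of 5 genes were higher and 2 lower at 5 hpf in each injection. The shares of all genes were 36.4% and 36.5% in StCsm(EGFP) embryos, and 36.7% and 35.9% in mock embryos. The CPM of NUP205 in StCsm(EGFP) embryos was 65.6, 48.2 and 51.2 at 128 cells, 98.0, 87.7 and 98.8 at 5 hpf and 129, 88.7 and 91.0 at 24 hpf. In mock embryos NUP205 had a CPM of 62.0, 54.0 and 58.8 at 128 cells, 104, 67.0 and 83.8 at 5 hpf and 109.8, 110.0 and 103 at 24 hpf. NUP205, a large scaffold protein, had a log2 fold change at the first step of 0.73 ± 0.16 in StCsm(EGFP) embryos and 0.54 ± 0.15 in mock embryos, which turned to -0.11 with totals in mock embryos. NUP35 fell at both steps. It had -0.88 ± 0.17 in StCsm(EGFP) embryos and -0.47 ± 0.15 in mock embryos at the first and -1.33 ± 0.17 in StCsm(EGFP) embryos and -1.47 ± 0.16 in mock embryos at the second. The CPM of NUP188 in StCsm(EGFP) embryos was 72.6, 66.9 and 70.3 at 128 cells, 57.4, 44.4 and 50.8 at 5 hpf and 53.7, 42.1 and 43.8 at 24 hpf. In mock embryos NUP188 had a CPM of 70.1, 67.2 and 74.9 at 128 cells, 54.0, 45.5 and 51.3 at 5 hpf and 47.8, 49.5 and 43.7 at 24 hpf. NUP188, the relative of NUP205 in the ring, was lower at 5 hpf than at the 128-cell stage in every library, with -0.54 ± 0.15 in StCsm(EGFP) embryos and -0.49 ± 0.14 in mock embryos. The CPM of NUP93 in StCsm(EGFP) embryos was 59.9, 42.9 and 40.5 at 128 cells, 79.9, 74.2 and 72.9 at 5 hpf and 106, 85.6 and 84.1 at 24 hpf. In mock embryos NUP93 had a CPM of 59.7, 51.1 and 60.3 at 128 cells, 84.1, 55.6 and 73.4 at 5 hpf and 96.1, 96.0 and 89.0 at 24 hpf. For NUP93, which links the ring to the channel, the change at the first step was 0.62 ± 0.16 in StCsm(EGFP) embryos and 0.31 ± 0.15 in mock embryos, which turned to -0.33 with totals in mock embryos, and at the second 0.25 ± 0.16 in StCsm(EGFP) embryos and 0.43 ± 0.15 in mock embryos. The CPM of NUP155 in StCsm(EGFP) embryos was 72.5, 59.1 and 59.6 at 128 cells, 121, 93.7 and 115 at 5 hpf and 29.2, 52.7 and 33.6 at 24 hpf. In mock embryos NUP155 had a CPM of 72.9, 62.8 and 74.3 at 128 cells, 115, 73.2 and 95.0 at 5 hpf and 23.7, 34.5 and 33.3 at 24 hpf. NUP155 was lowest at 24 hpf in every library of both injections. Its log2 fold change was 0.72 ± 0.21 in StCsm(EGFP) embryos and 0.43 ± 0.19 in mock embryos at 5 hpf over the 128-cell stage, which in mock embryos turned to -0.21 with totals, and -1.54 ± 0.22 (adjusted p = 2.54e-05) in StCsm(EGFP) embryos and -1.60 ± 0.20 (adjusted p = 6.06e-06) in mock embryos at 24 hpf over 5 hpf.

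The central channel and the cytoplasmic side carry phenylalanine-glycine repeats and the docking sites for carriers. The CPM of nup62l in StCsm(EGFP) embryos was 168, 136 and 139 at 128 cells, 251, 235 and 191 at 5 hpf and 117, 90.0 and 111 at 24 hpf. In mock embryos nup62l had a CPM of 179, 167 and 158 at 128 cells, 275, 188 and 198 at 5 hpf and 98.2, 102 and 108 at 24 hpf. nup62l was highest at 5 hpf and lowest at 24 hpf without overlap, with log2 fold changes of 0.55 ± 0.16 in StCsm(EGFP) embryos and 0.39 ± 0.15 in mock embryos, a step that turned to -0.067 and -0.26 with totals, and -1.11 ± 0.16 in StCsm(EGFP) embryos and -1.07 ± 0.15 in mock embryos. The CPM of nup214 in StCsm(EGFP) embryos was 5.42, 5.62 and 6.11 at 128 cells, 13.1, 15.1 and 23.0 at 5 hpf and 30.2, 23.8 and 20.5 at 24 hpf. In mock embryos nup214 had a CPM of 3.95, 4.01 and 8.98 at 128 cells, 11.5, 10.7 and 16.6 at 5 hpf and 19.6, 21.8 and 22.8 at 24 hpf. nup214, on the cytoplasmic side, was lowest at the 128-cell stage, with 1.50 ± 0.27 in StCsm(EGFP) embryos and 1.25 ± 0.24 in mock embryos at the first step. With TMM scaling it had 0.55 ± 0.26 in StCsm(EGFP) embryos and 0.78 ± 0.23 in mock embryos at the second. The CPM of nup42 in StCsm(EGFP) embryos was 11.3, 7.94 and 10.8 at 128 cells, 34.6, 24.5 and 25.5 at 5 hpf and 12.8, 7.26 and 9.37 at 24 hpf. In mock embryos nup42 had a CPM of 11.7, 8.93 and 11.2 at 128 cells, 33.6, 16.9 and 23.5 at 5 hpf and 12.3, 13.1 and 11.3 at 24 hpf. nup42 stood highest at 5 hpf, with 1.43 ± 0.21 in StCsm(EGFP) embryos and 1.19 ± 0.22 in mock embryos at the first step and -1.56 ± 0.22 in StCsm(EGFP) embryos and -0.95 ± 0.22 in mock embryos at the second. RANBP2, the large SUMO ligase of the cytoplasmic filaments, rose with TMM by 0.93 ± 0.19 in StCsm(EGFP) embryos and 0.59 ± 0.18 in mock embryos on the log2 scale at the first step, which with totals was 0.31, not called, in StCsm(EGFP) embryos and turned to -0.055 in mock embryos. NUP58 of the channel was not called at the first step and fell at the second, with -1.05 ± 0.15 in StCsm(EGFP) embryos and -0.88 ± 0.14 in mock embryos.

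The CPM of NUP50 in StCsm(EGFP) embryos was 104, 98.5 and 93.4 at 128 cells, 156.5, 165 and 151 at 5 hpf and 117, 79.1 and 71.2 at 24 hpf. In mock embryos NUP50 had a CPM of 102, 105 and 103.5 at 128 cells, 184, 126 and 149.8 at 5 hpf and 108, 90.9 and 88.4 at 24 hpf. NUP50, a nuclear basket protein, was highest at 5 hpf, with changes of 0.61 ± 0.17 in StCsm(EGFP) embryos and 0.56 ± 0.14 in mock embryos at the first step, which turned to -0.0040 and -0.082 with library totals, and -0.86 ± 0.17 in StCsm(EGFP) embryos and -0.66 ± 0.14 in mock embryos at the second. The CPM of NUP210 in StCsm(EGFP) embryos was 45.8, 51.8 and 45.7 at 128 cells, 64.0, 63.6 and 76.1 at 5 hpf and 72.9, 107 and 79.3 at 24 hpf. In mock embryos NUP210 had a CPM of 41.0, 45.5 and 51.0 at 128 cells, 60.1, 76.2 and 69.0 at 5 hpf and 84.3, 80.5 and 86.3 at 24 hpf. NUP210, the membrane-spanning nucleoporin, had log2 fold changes of 0.44 ± 0.17 in StCsm(EGFP) embryos and 0.58 ± 0.14 in mock embryos at the first step, which turned to -0.16 and -0.054 with totals, and 0.31 ± 0.17 in StCsm(EGFP) embryos and 0.31 ± 0.14 in mock embryos at the second, which in mock embryos turned to -0.084. The other basket gene, nup153, had 0.00 ± 0.15 in StCsm(EGFP) embryos and 0.25 ± 0.13 in mock embryos at the first step, not called, and -0.61 ± 0.15 in StCsm(EGFP) embryos and -0.51 ± 0.13 in mock embryos at the second.

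Other genes of the pathway were read from a separate list of 41 symbols, of which 35 matched 37 identifiers. At 5 hpf over the 128-cell stage 20 of 37 were higher and 8 lower in StCsm(EGFP) embryos (median log2 fold change 0.55, background 36.4% and 36.5% of all genes). In mock embryos 23 were higher and 6 lower (median 0.60, background 36.7% and 35.9%). At 24 hpf over 5 hpf 7 were higher and 19 lower in StCsm(EGFP) embryos (median -0.57, background 40.6% and 37.9%). In mock embryos 10 were higher and 21 lower (median -0.47, background 41.7% and 40.0%). RCC1, the exchange factor that loads Ran with GTP, changed at the second step by -3.60 ± 0.19 in StCsm(EGFP) embryos and -3.37 ± 0.17 in mock embryos, after 0.82 ± 0.17 in StCsm(EGFP) embryos and 0.88 ± 0.15 in mock embryos at the first, which was called with TMM but not with totals. CSE1L, which returns importin alpha to the cytoplasm, was not called at the first step (0.23 ± 0.18 in StCsm(EGFP) embryos and 0.24 ± 0.17 in mock embryos) and rose by 0.91 ± 0.18 in StCsm(EGFP) embryos and 1.096 ± 0.17 in mock embryos at the second. NUTF2, the carrier of RanGDP into the nucleus, rose at both with TMM scaling, by 1.51 ± 0.18 in StCsm(EGFP) embryos and 1.54 ± 0.16 in mock embryos and then by 0.69 ± 0.17 in StCsm(EGFP) embryos and 0.75 ± 0.16 in mock embryos.

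The question of whether StCsm(EGFP) shifted these genes beyond the mock injection was addressed by fitting each stage alone. At the 128-cell stage 1 of 56 genes was called, tnpo2a, which was higher, against a background of 5.05% of genes tested, and 15 of 56 had an unadjusted p under 0.05 against a background of 18.7%. tnpo2a had 285, 402 and 403 CPM in StCsm(EGFP) libraries and 242, 287 and 366 CPM in mock libraries. The StCsm(EGFP) library was higher in 3 of 3 experiments although the groups overlapped, with a log2 fold change of 0.28 ± 0.070 (adjusted p = 0.0606). The call was lost without the block (adjusted p = 0.987), without replicate 1 (0.163) or without replicate 2 (0.178) and in the fit of all 18 libraries (1.00), and it held in 6 of 10 alternatives. The log2 fold changes of the other members ranged between -0.39 for NUP85 (ENSDARG00000112002) and 0.36 for tnpo2b, with a median over the 56 of -0.026, against -0.0007 for all genes. Of the 37 other pathway genes 3 were called higher at this stage and 0 lower, all with TMM scaling and the block: BANF1, which tethers chromatin to the envelope (0.20), LBR, the lamin B receptor (0.24), and senp1, a SUMO protease (0.29), and 0 were called at 5 hpf or 24 hpf. All 3 calls were lost without the block, without replicate 1, without replicate 2 and in the fit of all 18 libraries (highest adjusted p = 1.00 for each). Those of BANF1 and LBR were also lost without replicate 3, and those of BANF1 and senp1 with DESeq2's size factors. BANF1 held in 4 of 10 alternatives, and LBR and senp1 in 5 of 10 each.

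At 5 hpf 0 of 55 tested genes were called against a background of 0%, and 0 had an unadjusted p under 0.05 where the background was 0.828%. DESeq2's Wald test also called 0. The smallest p was that of nup54, with 35.2, 28.6 and 28.4 CPM in StCsm(EGFP) and 35.3, 12.5 and 23.5 CPM in mock embryos, and the groups overlapped. Its log2 fold change was 0.47 ± 0.28 (adjusted p = 1.00). At 24 hpf 0 of 55 genes were called against a background of 0%, 0 had an unadjusted p under 0.05 against 4.82% of all genes, and DESeq2's Wald test called 0. NUP155 had the smallest p, with 29.2, 52.7 and 33.6 CPM in StCsm(EGFP) and 23.7, 34.5 and 33.3 CPM in mock libraries, and its log2 fold change was 0.32 ± 0.16 (adjusted p = 0.977). At 24 hpf kpna7 was not tested for its low counts. At 5 hpf ipo13a, not tested for the same reason, had 1.02, 1.07 and 0.738 CPM in StCsm(EGFP) and 0.582, 0.692 and 0.525 CPM in mock libraries.

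The median log2 ratio of StCsm(EGFP) over mock within an experiment, over the 56 genes, was 0.056, 0.013 and -0.15 at 128 cells, -0.023, 0.18 and 0.15 at 5 hpf and 0.070, -0.17 and -0.088 at 24 hpf, so its sign differed between experiments at every stage. The injection effect was then compared between stages as an interaction. Of the members, 0 were called for 5 hpf against the 128-cell stage and for 24 hpf against 5 hpf (backgrounds 0%), and 0 for 24 hpf against the 128-cell stage (background 0.0771%). The smallest p was that of NUP155 in the last of these, a difference of 0.46 ± 0.18 on the log2 scale (unadjusted p = 0.0212, adjusted p = 0.871).

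**Figure D4:**
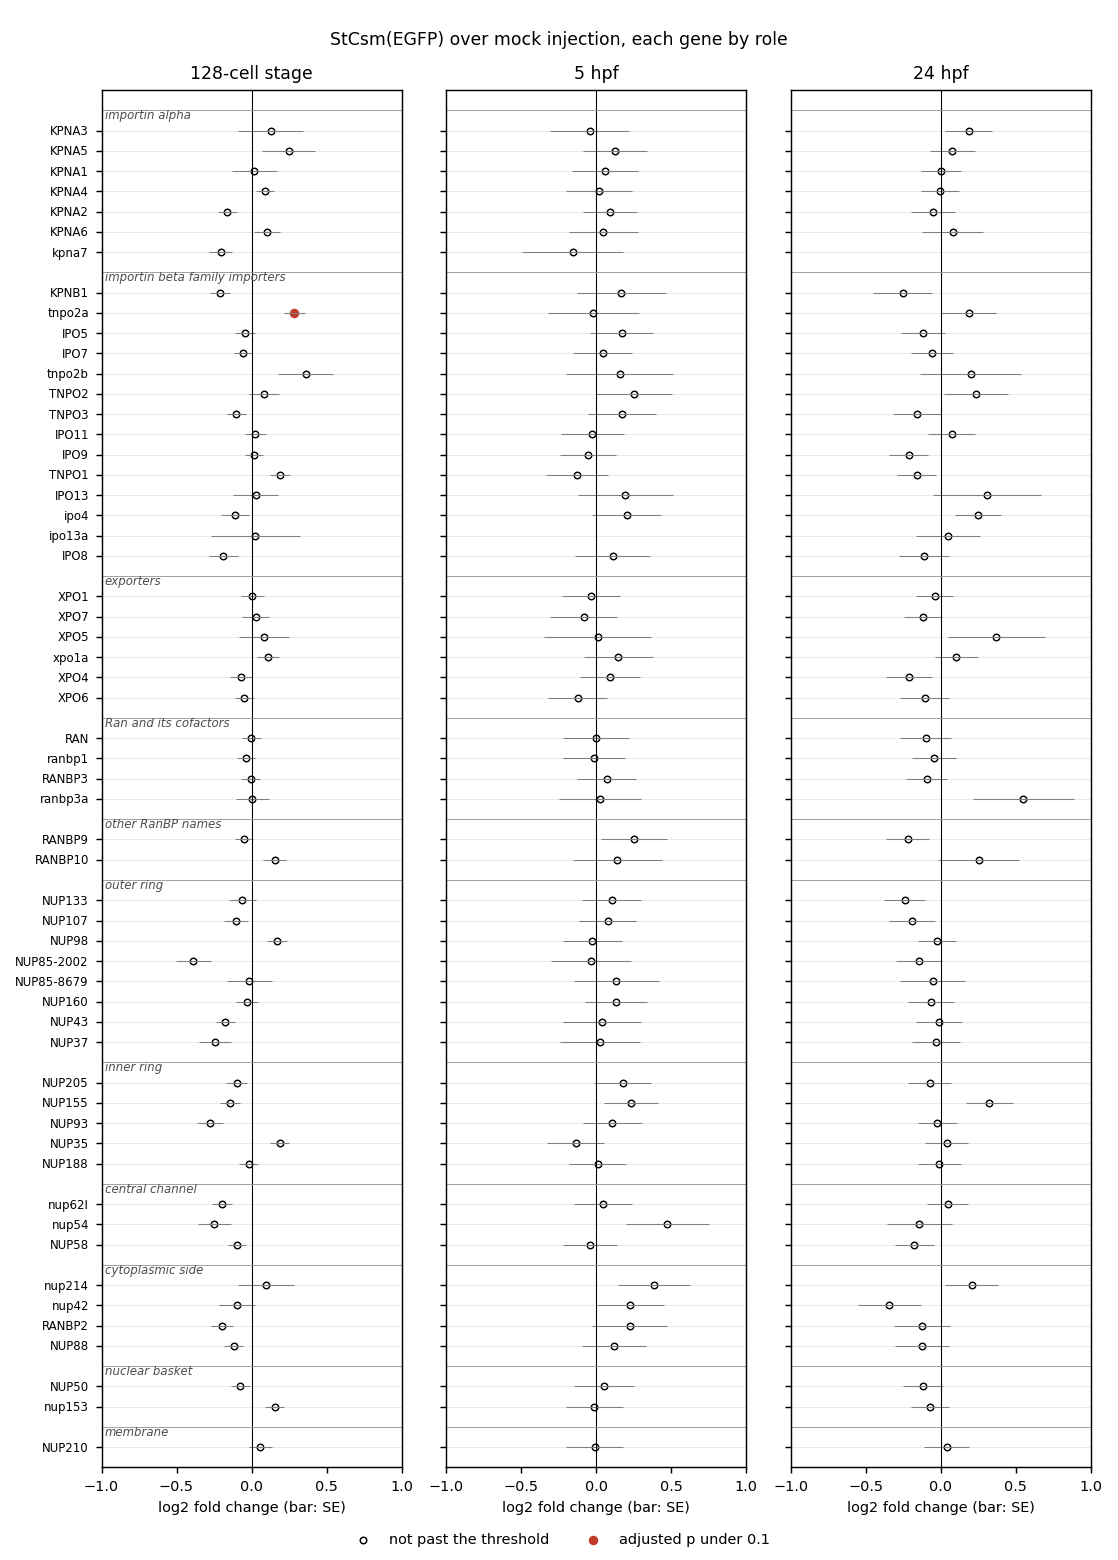
Log2 fold change of StCsm(EGFP) over mock embryos for each gene, by role, in 1 panel for each of the 3 stages; bars are standard errors, and the filled circle, tnpo2a at the 128-cell stage (0.28), is the 1 value with an adjusted p under 0.1. The values lie between -0.39 and 0.36 at the 128-cell stage, between -0.16 and 0.47 at 5 hpf and between -0.34 and 0.55 at 24 hpf; ipo13a at 5 hpf and kpna7 at 24 hpf were not tested.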

How the data were processed

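Poly(A)-selected RNA of 18 zebrafish libraries was sequenced in pairs of reads. The authors deposited raw counts of reads per gene. Their processing notes name bcl2fastq 2.16.10, UMI-tools 1.0.0, cutadapt 2.4, STAR 2.7.2b, HTSeq 0.11.2, R 3.6.1, DESeq2 1.24.0 and the build GRCz11; the annotation release and the strand setting of the counting are not given in the sources used here, so overlapping antisense genes cannot be told apart. Reads without a feature (11.1 to 17.9% of listed reads), ambiguous reads (0.669 to 1.70%) and reads with several alignments (3.77 to 14.8%) stayed out of library sizes. Of 32521 identifiers, 29201 were paired with a symbol. The deposited normalized tables and the EGFP annotation were not used here, and sequences and coordinates of the genes are not printed.

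Fits used R 4.3.3, edgeR 4.0.16, limma 3.58.1 and DESeq2 1.42.0, and tables and plots Python 3.11.15 with pandas 2.3.3 and matplotlib 3.10.9. Genes were filtered with filterByExpr, scaled with TMM and tested with edgeR's quasi-likelihood test (Benjamini-Hochberg over all genes tested, threshold 0.1). Injection was tested within each stage and stage within each injection, with the replicate number as a block. A number was taken to mark 1 of 3 independent injection experiments. Deviations from group means correlated at 0.38 to 0.57 between same-numbered libraries at the 128-cell stage, 0.059 to 0.50 at 5 hpf and 0.17 to 0.39 at 24 hpf. Between differently numbered libraries the values were -0.44 to -0.13, -0.52 to 0.43 and -0.29 to 0.13, so the ranges overlapped at 5 hpf. Across stages they overlapped in StCsm(EGFP) embryos for 24 hpf with either earlier stage, and in mock embryos for no pair of stages. The interaction tests used the 12 libraries of a pair of stages. The scripts were tested on simulated data.

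The members and all lists were chosen with earlier results of these data known. Values of every library are given for RAN, KPNB1, XPO1, xpo1a, the importin alpha genes, the called member of each role with the largest rise and fall between neighbouring stages in mock embryos, and members called or with the smallest p for injection; others were picked after their values were seen. The paralog of xpo1a is listed as XPO1 in the table used. In the pathway list gle1b, rangap1a, rangap1b, nxt1a, nxt1b and ddx19b had no identifier. Alternatives were no replicate block, DESeq2's size factors and Wald test, library totals, no filter or at least 10 counts, 1 fit of all 18 libraries, a threshold of 0.05 and each replicate left out.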

Additional observations from a re-analysis of the deposited data

How the results depend on the processing

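At the 128-cell stage 1 member was called for injection. Without the replicate block 0 were called, as in 1 fit of all 18 libraries and at an adjusted p under 0.05, and without a filter on low counts 6 were called (tnpo2a, TNPO1 and NUP35 higher, NUP93, KPNB1 and the ENSDARG00000112002 copy of NUP85 lower). Leaving out a replicate gave 0 to 2, with 0 without replicate 1 or replicate 2 and 2 (tnpo2a and the same NUP85 copy) without replicate 3. All 56 members were tested in each of these fits. Over all genes the block changed the count from 0 without it to 783 with it, of 15498 tested. No filter gave 1513 of 26331 and the fit of 18 libraries 6 of 20231. The replicates left out gave 102 of 15446 (without replicate 2) to 875 of 15904 (without replicate 3). At 5 hpf and 24 hpf 0 members were called under every alternative that was run. Few of all genes were called there either. The most at 5 hpf were 15 higher and 7 lower of 15992, without replicate 2. The most at 24 hpf were 70 higher and 2 lower of 27719, without a filter on low counts. Without the block every count of stage calls stayed within 1.5 times its main value.

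With library totals the members called higher and lower were 13 and 19 in StCsm(EGFP) and 15 and 24 in mock embryos at 5 hpf over the 128-cell stage, 13 and 35 in StCsm(EGFP) and 13 and 38 in mock embryos at 24 hpf over the 128-cell stage, and 5 and 37 in StCsm(EGFP) and 5 and 36 in mock embryos at 24 hpf over 5 hpf. The shares of all genes called higher and lower with totals were 26.0% and 48.8%, 25.9% and 51.1%, 35.5% and 51.2%, 34.9% and 54.0%, 36.0% and 41.7%, and 34.7% and 47.3%, in the same order. The members called higher at 24 hpf over 5 hpf were 5 to 10 in StCsm(EGFP) embryos with a replicate left out, lowest without replicate 1. Over all genes 7381 of 19718 were called higher without replicate 1, 7666 of 19379 without replicate 2 and 7416 of 19688 without replicate 3. The members with their highest mean at the 128-cell stage and at 24 hpf were 28 and 9 in StCsm(EGFP) embryos, and in mock embryos 35 and 6, with 15 at 5 hpf.

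Totals reversed 21 of the called stage changes of single members printed above or named by rule. In StCsm(EGFP) embryos at 5 hpf over the 128-cell stage these were KPNA2 (-0.037), NUP210 (-0.16), NUP50 (-0.0040), XPO7 (-0.065), nup62l (-0.067) and xpo1a (-0.16). In mock embryos they were KPNA2 (-0.24), NUP155 (-0.21), NUP205 (-0.11), NUP210 (-0.054), NUP50 (-0.082), the ENSDARG00000112002 copy of NUP85 (-0.10), NUP93 (-0.33), RANBP2 (-0.055), TNPO2 (-0.072), TNPO3 (-0.21), nup62l (-0.26) and xpo1a (-0.18), and at 24 hpf over 5 hpf NUP205 (-0.018), NUP210 (-0.084) and RAN (-0.00088). The cause was not tested. Of 150 such single-gene values, tnpo2a at the 128-cell stage included, 100 kept direction and call under every alternative, and 0 reversed under any other than library totals. With totals a further 23 of the 150 kept their direction but lost their call.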

Other observations

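Genes of the nuclear envelope and of mRNA export, read from the list of other pathway genes, also differed between stages. The lamin genes LMNB2 and LMNA, which encode the meshwork under the envelope, were higher at 5 hpf than at the 128-cell stage, with log2 fold changes of 2.32 ± 0.19 and 2.77 ± 0.37 in StCsm(EGFP) embryos and 2.46 ± 0.16 and 2.704 ± 0.21 in mock embryos. The third lamin of the list, LMNB1, changed less, with 0.32 ± 0.18 in StCsm(EGFP) embryos, not called, and 0.62 ± 0.15 in mock embryos, which turned to -0.012 with library totals. The gene emd, which encodes the inner membrane protein emerin, was higher at 5 hpf by 1.70 ± 0.43 in StCsm(EGFP) and 2.04 ± 0.42 in mock embryos and higher again at 24 hpf by 3.52 ± 0.38 in StCsm(EGFP) and 3.00 ± 0.35 in mock embryos, all with TMM scaling. These changes start from low levels. Over both injections emd lay between 0.181 and 0.783 CPM at the 128-cell stage and between 0.974 and 3.37 CPM at 5 hpf.

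The paralogs nxf1a and nxf1b, named for the main mRNA export receptor, moved in opposite directions at 5 hpf over the 128-cell stage. nxf1a fell by 4.05 ± 0.35 on the log2 scale in StCsm(EGFP) embryos and by 3.70 ± 0.28 in mock embryos. nxf1b rose by 1.58 ± 0.17 in StCsm(EGFP) embryos and by 1.67 ± 0.15 in mock embryos. DDX19A and ddx19a, named for the helicase at the cytoplasmic side of the pore, likewise differed, with 1.16 ± 0.17 in StCsm(EGFP) and 1.22 ± 0.14 in mock embryos for DDX19A and -1.54 ± 0.24 in StCsm(EGFP) and -1.34 ± 0.21 in mock embryos for ddx19a. These genes were picked after their values were seen.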
